A study of Mus musculus with 2 samples.

Results

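The collagen genes are the genes for the chains of the triple-helical proteins of the extracellular matrix. They were taken as the protein-coding genes of GENCODE mouse release M21 whose symbol is Col, digits, the letter a and digits, which gave 44 of 21884 protein-coding genes. The class of each chain was set from general knowledge: 11 were fibrillar and 33 were not. The 33 comprised 6 type IV chains, 3 other network chains (types VIII and X), 6 beaded filament chains (type VI), the type VII chain, 9 fibril-associated chains (FACIT), 4 transmembrane chains, 2 multiplexins (types XV and XVIII), and Col26a1 and Col28a1.

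Chromatin immunoprecipitation with an antibody to CTCF, followed by sequencing (ChIP-seq), had been done on lungs of B6NCrl mouse embryos at embryonic day 14.5, male and female together. The material was pulverised lung from several dissections, so that a library holds several animals and all the cell types of the organ. There was 1 group of 2 libraries, biological replicates 1 and 2, with no treatment, mutant or second age. Because 1 biosample and donor record is given for both, differences between the libraries may be technical only. No marker genes could be checked, because the files hold peaks and no expression values.

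CTCF is a zinc finger protein that binds a long, directional DNA motif and marks insulators and the anchors of chromatin loops, where cohesin is held and the direction of the motif matters. Fibrillar collagens give connective tissue its tensile strength, type IV collagens form the network of basement membranes, and in the lung both kinds surround the growing airways and vessels. The type IV chains are encoded in head-to-head pairs that are transcribed away from a shared start region.

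A site here is the summit of a peak in the authors' list of optimal peaks. The list was thresholded by the irreproducible discovery rate (IDR), a measure of how alike peaks rank between peak lists. A site need not rank alike in both replicates. Of the 273 sites in and within 20 kb of collagen genes, 264 had a matching peak in both. That list held 54943 sites on chromosomes 1 to 19, X and Y. Signal is the peak caller's own value for a peak. It is not scaled between lists, and the peak lists hold no read counts, so the depth behind a value is unknown. For a site, the signal in the optimal list is given first and those of the matching peaks in the lists of replicate 1 and replicate 2 after it. Each replicate value is a single number without an error of its own. Intervals are 95% Wilson intervals and cover counting error only.

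The motif was learned from these peaks as a matrix 20 bases wide. Its consensus, in which the most frequent base stands at each position, was TGGCCACCAGGGGGCGCTAG. The motif matches below show the DNA under the collagen sites on which the values turn. They comprise the 5 motif-bearing sites at collagen starts, the strong second site of Col27a1, the sites nearest the starts of Col3a1 and Col11a1, the strongest site in the windows of the collagens, the match identical to the consensus, and the strongest site of 2 type IV pairs. Each is read 5′ to 3′ in the direction of the motif on mm10 (GRCm38), with the 20 matched bases in capitals and 5 flanking bases on each side.
Col1a1, intron, chr11:94937171-94937190, minus strand: caaggCAACCACTAGGTGGCGGGCAaaact
Col5a1, intron, chr2:27887328-27887347, minus strand: tggccTTGACTCTAGGGGGCGGCCCtttcc
Col27a1, upstream of the start, chr4:63213940-63213959, minus strand: cgaggCATCCTGCAGGGGGCAGAGCacccg
Col6a2, 5′ untranslated region, chr10:76623434-76623453, plus strand: aaactCGACCGCTGGGGGGCGCTGCggccc
Col19a1, intron, chr1:24586573-24586592, plus strand: gcctcCCTCCTCCAGGCGGCGGTGGctgcg
Col27a1, intron, chr4:63215296-63215315, plus strand: tgctgCGTCCGGCAGGGGGCAGCAGttggc
Col3a1, intron, chr1:45314129-45314148, minus strand: tttgtTAGCCACTAGGTGGCATGGTttagc
Col11a1, exon of a non-coding transcript, chr3:114032537-114032556, minus strand: gaagaAAACCAGCAGAGGGCAGAACtgctg
Col18a1, intron, chr10:77130732-77130751, plus strand: ggtgcTGGCCACCAGAGGGAGCCATagatc
Col5a3, upstream of the gene, chr9:20831180-20831199, minus strand: atacgTGGCCACCAGGGGGCGCTAGgagct
Col4a1, intron, chr8:11253678-11253697, plus strand: tagtcTGGCCACCAGGGGGAGAGCTtggtc
Col4a3, exon of a non-coding transcript, chr1:82641861-82641880, minus strand: caattTCGCCACCAGGGGGCGGTCTtgttc

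CTCF sites were found in and around nearly every collagen gene, and a minority of collagens, as of all protein-coding genes, had one at the start. Of the 44 collagens, 8 had a site within 1 kb of the start, which was 18.2% (9.51 to 32.0), against 26.6% of all protein-coding genes. In the gene body, 42 of 44 had a site (95.5%, 84.9 to 98.7), against 50.6% of all protein-coding genes. With 20 kb on each side added, the window used below, the count was 43 of 44 (97.7%, 88.2 to 99.6), against 79.7%. The interval of the share at starts included the value for all genes, and the intervals of the other 2 shares did not. The share at starts depended on how starts and sites were taken: with the start of any annotated transcript it was 31.8% (14 genes) against 34.4% of all genes, within 500 bp it was 11.4% against 20%, and among the strongest 10000 sites it was 6.82% (3 genes) against 4.28%. Without replicate 1, when the strongest peaks of replicate 2 stood in for the sites, the window of every collagen had one.

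Collagen genes are long, with a median length of 114 kb against 17.4 kb for other protein-coding genes, and long genes hold more sites. Among genes over 100 kb, all 26 collagens had a site in the body, against 93.0% of other genes of that length. Among genes of 30 to 100 kb, all 9 collagens did, against 73.3%, and among genes under 30 kb 7 of 9 collagens did, against 34.9% (77.8%, 45.3 to 93.7 for the collagens). The length classes used here and below are wide. Length was not matched within them, so collagens and other genes of a class may still differ in length. At starts, none of the 9 collagens of 30 to 100 kb had a site within 1 kb (0 to 29.9), against 30.3% of other genes of that length. The share was 23.1% (11 to 42.1) against 36.0% over 100 kb and 22.2% (6.32 to 54.7) against 23.6% under 30 kb.

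Sites per length depended on the lengths compared. Over all lengths, the median was 3.5 sites per 100 kb of collagen window (quartiles 2.28 and 6.66), against 3.6 in windows of other protein-coding genes. Within a length class the medians were 8.94 against 4.22 under 30 kb, 3.53 against 3.54 from 30 to 100 kb, and 2.84 against 2.25 over 100 kb. With all windows of a group joined, collagens had 3.94 sites per 100 kb and other genes 3.04. The collagen density was thus higher in the shortest and the longest class and level in the middle one, a difference that was not tested.

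**Figure D1:**
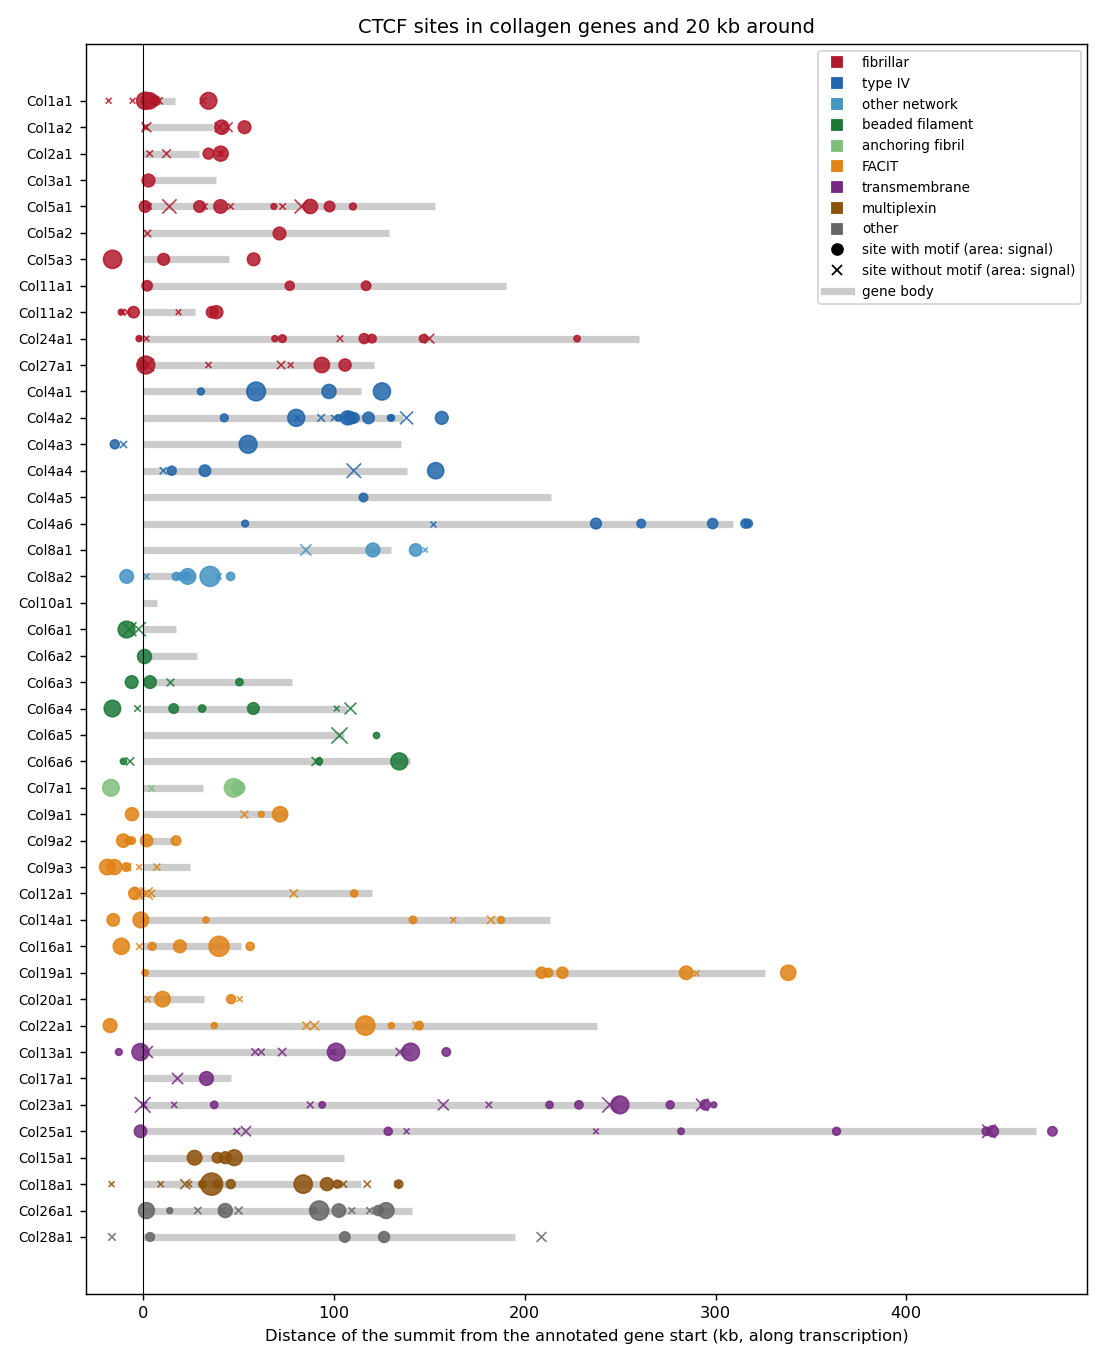
Sites in the windows of the 44 collagens, with distance of the summit from the annotated start along transcription in kb on the horizontal axis and 1 gene in each row, coloured by class. Grey bars are gene bodies, circles are sites with the motif and crosses sites without it, and the area of a symbol grows with the signal; Col10a1 has no symbol, and no type IV symbol lies within 10 kb of the start.

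The fibrillar collagens carried 3 of the 8 occupied starts. That was 27.3% of 11 genes (9.75 to 56.6), against 15.2% of the 33 other collagens (6.65 to 30.9), and these intervals overlapped widely. Both intervals included the 26.6% of all protein-coding genes, and the fibrillar share was near that value. With the conservative IDR list the fibrillar share was 27.3% and that of the others 9.09%, against 25.4% of all genes. With the start of any annotated transcript the fibrillar share was 54.5% (6 genes) and that of the others 24.2% (8 genes), against 34.4% of all genes. Within 500 bp the order turned round, with 9.09% of fibrillar collagens (1 gene) and 12.1% of the others (4 genes). The 3 genes were Col1a1, the major chain of type I collagen, Col5a1, which regulates fibril diameter as part of type V collagen, and Col27a1, a fibrillar chain of cartilage.

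At Col1a1 (start at chr11:94936224, plus strand), the site lay 938 bp into the gene in an intron and had a signal of 334.9, with 175.3 in replicate 1 and 157.1 in replicate 2. This was the strongest site at any collagen start. A second site 3249 bp from the start had a signal of 299.9, with 165.6 and 133.2 in the replicates. Col1a1 also had the densest window of all collagens, with 9 sites at 15.8 per 100 kb. Another strong site, with a signal of 311.1 and replicate values of 168.4 and 143.8, lay downstream of the gene and inside Sgca, which encodes a muscle sarcoglycan, so it cannot be assigned to Col1a1 alone.

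The site of Col5a1 lay 921 bp from the start, in an intron, with a signal of 135.8 and replicate values of 71.9 and 64.8. It was also within 1 kb of the start of the gene 2810430I11Rik. The body of Col5a1 held 13 sites in all, with signals between 15.9 and 225.2, and 7 of these had the motif.

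Col27a1 had its site 28 bp from the start, the closest of any collagen, with a signal of 93.0 and replicate values of 49.8 and 42.4. A second site 1305 bp into the gene was stronger in both replicates, at 361.9 with 202.4 and 158.0, and another followed at 2143 bp with 173.7, 104.8 and 68.6. The motifs of the first and second site pointed away from each other, as the strands given with their sequences show.

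The nearest sites of the other 8 fibrillar collagens lay between 1074 and 10661 bp from the start, and 6 of them within 5 kb. Col1a2, the second chain of type I collagen, fell just outside the 1 kb limit, with a weak site in a coding exon at 1074 bp (signal 17.9, replicates 12.2 and 6.1). A stronger site followed at 1616 bp (96.2, replicates 51.4 and 44.7). Both also lay within 1 kb of the start of the predicted gene Gm43921.

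Col3a1, the chain of type III collagen of vessels and lung, had a single site in its whole window, 2630 bp into the gene, with a signal of 173.7 and replicate values of 92.2 and 79.5. Col11a1, a cartilage chain that nucleates fibrils, had its nearest site at 2004 bp (105.0, replicates 62.3 and 41.5). Col5a2, the partner of Col5a1 in type V collagen, had one at 1700 bp (44.0, replicates 20.5 and 22.6). In these 3 genes the nearest site lay inside the gene.

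Weaker nearest sites were seen at Col24a1, a fibrillar chain of developing bone, at 1645 bp (15.4, replicates 5.9 and 9.7), and at Col2a1, the main cartilage collagen, at 3342 bp (29.7, replicates 19.7 and 9.6). Col11a2 and Col5a3 were the 2 fibrillar collagens without a site within 5 kb. The nearest site of Col11a2, the second chain of type XI collagen, was 5091 bp upstream inside Rxrb (130.5, replicates 78.0 and 52.1). Col5a3, a further type V chain, had its nearest site 10661 bp into the gene (143.0, replicates 75.8 and 67.9).

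Within 5 kb of the start, 9 of 11 fibrillar collagens had a site (81.8%, 52.3 to 94.9), as did 18 of 33 other collagens (54.5%, 38.0 to 70.2). For all 44 the count was 27 (61.4%, 46.6 to 74.3), against 44.8% of all protein-coding genes. The order relative to all genes was the opposite of that within 1 kb. In a range chosen after the values were seen, 14 of 44 collagens had their nearest site 1 to 3 kb from the start (31.8%), against 11.1% of all protein-coding genes. The median distance from the start to the nearest site was 2840 bp in the collagens, against 6720 bp in the 21657 other protein-coding genes with a site on their chromosome. It was 1700 bp for the fibrillar chains and 3580 bp for the others.

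The difference in the share within 5 kb varied with gene length. It was 7 of 9 collagens against 42.4% of other genes under 30 kb, 6 of 9 against 48.0% between 30 and 100 kb, and 14 of 26 (53.8%) against 51.9% over 100 kb. The longest class, which held most collagens, was therefore near the other genes of its length. The shorter classes rest on 9 collagens each.

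**Figure D2:**
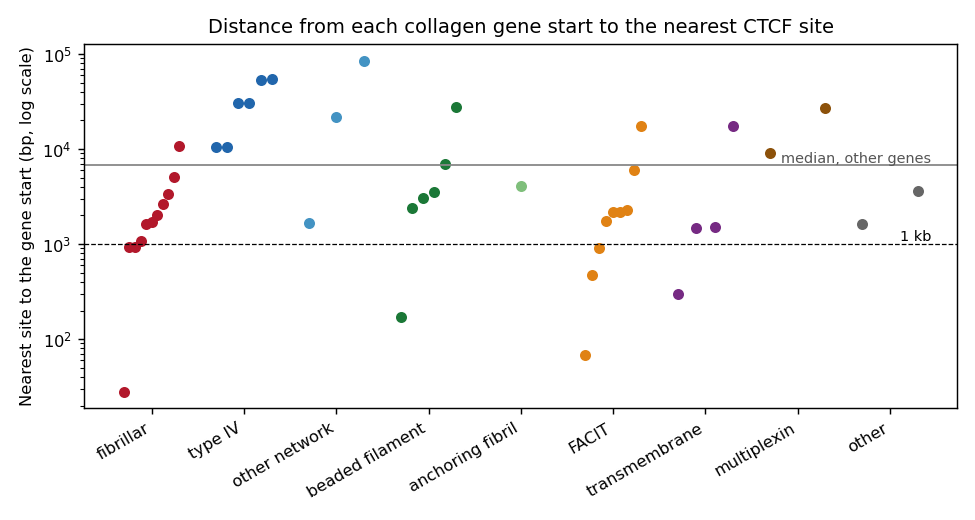
Distance from each collagen start to the nearest CTCF site in bp on a log axis, by class, 1 point per gene; lines mark 1 kb and the median of other protein-coding genes (6720 bp). Of the 11 fibrillar points, 9 lie below 5 kb, whereas all 6 type IV points lie above 10 kb.

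Type IV collagens, the chains of basement membranes, had no site near their starts, as did the 2 multiplexins. None of the 6 type IV genes had a site within 1 kb or within 5 kb of the start, which allows a share of up to 39.0% by the Wilson interval. The 6 genes form 3 head-to-head pairs, so they give only 3 independent start regions, and the interval computed on 6 genes is too narrow. Among 1338 head-to-head pairs of protein-coding genes with starts within 2 kb of each other, 42.3% had a site within 1 kb of either start, and the type IV count was 0 of 3. It was 1 of 3 without replicate 2, when the strongest peaks of replicate 1 stood in for the sites. No type IV pair had a site within 10 kb of either start, a state shared by 28.0% of all such pairs. With 3 pairs, a difference was not detectable.

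Col4a1 and Col4a2, the chains found in all basement membranes, start on opposite strands of chromosome 8 at 11312826 and 11312805, so that their first bases overlap. The pair with its flanks held 18 sites in 291 kb, or 6.19 per 100 kb. The site nearest to the middle of the start region was 30204 bp away, inside Col4a1, and was weak (34.2, replicates 20.5 and 12.4). The strongest site of the pair lay 59137 bp into Col4a1 and had a signal of 406.1 (replicates 213.8 and 199.0). Only Col23a1 and Col18a1 had more sites in their window than Col4a2, with 14, of which 10 had the motif.

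Col4a3 and Col4a4, chains of the kidney glomerulus, the alveolus and the inner ear, start 72 bp apart on chromosome 1. Their window held 6 sites in 314 kb, or 1.91 per 100 kb. The nearest site was 10508 bp from the middle, inside Col4a4, and had no motif (38.6, replicates 19.1 and 17.7). The strongest lay 54947 bp into Col4a3, in an exon of a non-coding transcript, with 361.6 (replicates 191.0 and 171.9).

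Col4a5 and Col4a6 start 1309 bp apart on chromosome X. Their window held 8 sites in 564 kb, or 1.42 per 100 kb, the lowest density of the 3 pairs. The nearest site was 54050 bp from the middle, inside Col4a6 (30.9, replicates 16.2 and 14.3). The single site of the Col4a5 window had a signal of 64.0 (replicates 30.5 and 36.8), and the strongest of the pair, in Col4a6, reached 116.4 (replicates 76.4 and 38.3). No site of this pair was as strong as the strongest of either autosomal pair. The pool held both sexes, so a lower number of X chromosomes per cell and weaker sites cannot be told apart.

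The start regions of the type IV pairs were also searched in the longer, unthresholded list of peaks from pooled reads. Col4a1 and Col4a2 shared an entry within 1 kb with a signal of 16.6, at rank 60631, which is beyond the 54943 sites of the optimal list. Col4a5 had one of 6.23, and Col4a3, Col4a4 and Col4a6 had none. Of all 36 collagens without a site at the start, 23 had an entry of this kind, and only that of Col13a1 (19.8, rank 54291) ranked within the length of the optimal list. The same count was not made over all protein-coding genes, so 23 of 36 cannot be called high or low.

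**Figure D3:**
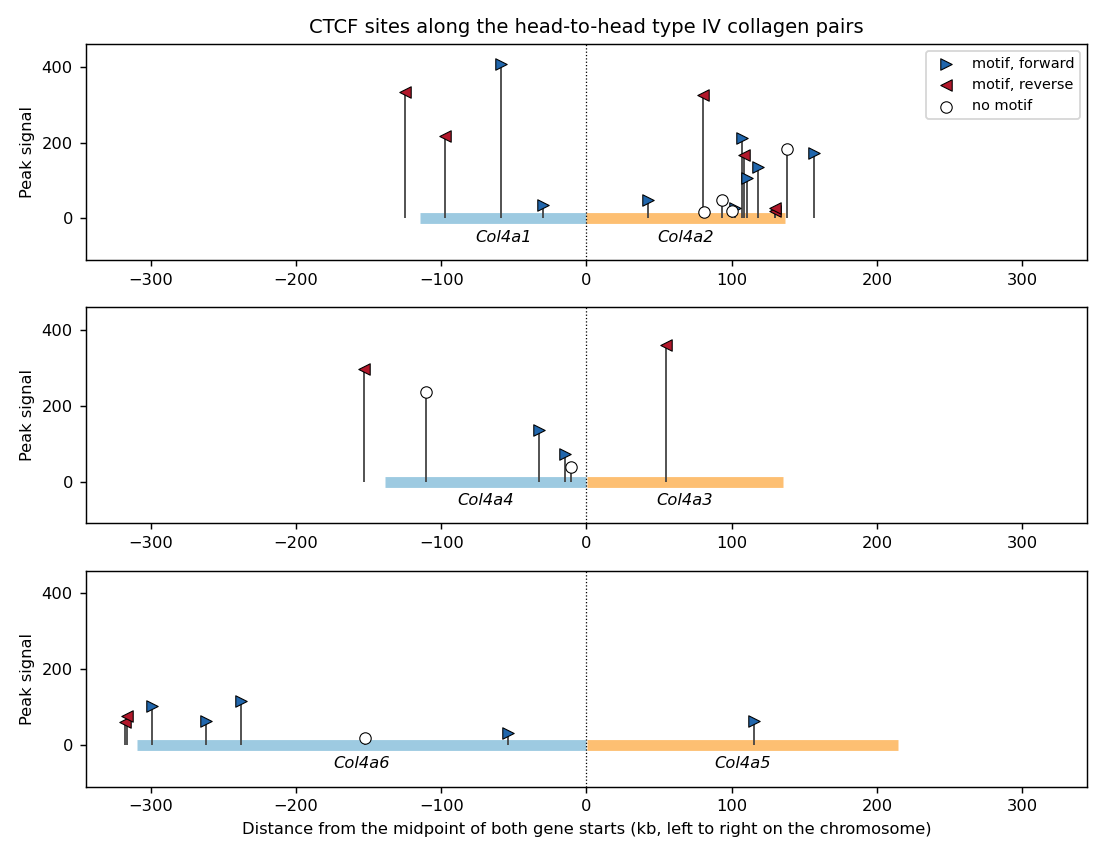
Sites around the 3 head-to-head type IV pairs, with distance from the middle of the start region in kb on the horizontal axis and signal in the optimal list on the vertical axis; triangles are sites with the motif and point along it, open circles are sites without it, and bars are gene bodies. The region nearest the middle is empty in all 3 panels, by 10508 bp in the Col4a3 and Col4a4 pair and by 54050 bp in the Col4a5 and Col4a6 pair.

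Among the other network collagens, Col8a2, a chain of the corneal and vascular basement membranes, had the second densest window of all collagens, at 13.3 sites per 100 kb. Its strongest site reached 460.7 (replicates 247.6 and 216.6), but lay downstream of the gene, within 1 kb of the start of Adprhl2. Its partner Col8a1 had 4 sites and its nearest 85240 bp into the gene (128.4, replicates 68.2 and 59.6). Col10a1, the collagen of hypertrophic cartilage and the shortest gene of all at 7.11 kb, was the only collagen without a site in its window. Its nearest site was 21655 bp from the start.

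Type VI collagen forms beaded filaments around cells, and 1 of its 6 genes had a site at the start (16.7%, 3.01 to 56.4), against 26.6% of all protein-coding genes. At Col6a2 the site lay 171 bp into the gene, in the 5′ untranslated region, and had a signal of 214.1 (replicates 112.9 and 103.2). It was also the only site in the window of Col6a2. Col6a1, its neighbour on chromosome 10, had no site in the body but 3 upstream, of which the nearest was 2417 bp away (226.7, replicates 112.5 and 113.5) and the strongest had 314.2 (replicates 152.9 and 167.4). The start regions of Col6a1 and Col6a2 lay between the same 2 neighbouring motif-bearing sites, 112 kb apart, whose motifs pointed toward each other.

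Col6a3, the large chain of classical type VI collagen, had 4 sites, the nearest 3504 bp into the gene (166.4, replicates 96.5 and 69.0). The neighbours Col6a4, Col6a5 and Col6a6 on chromosome 9 had 7, 2 and 5 sites, of which 1 was shared by the windows of Col6a5 and Col6a6. The strongest of these were 307.3 upstream of Col6a4 (replicates 165.3 and 142.9), 295.7 in Col6a5 (149.4 and 146.9) and 323.5 in Col6a6 (184.1 and 140.3).

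Col7a1, whose product makes the anchoring fibrils of skin, had 1 weak site in the body (22.6, replicates 16.7 and 7.5), 4073 bp from the start. The strong sites of its window lay outside the gene: 387.6 (replicates 218.3 and 170.7) inside Pfkfb4, and 310.2 (replicates 159.8 and 151.4) within 1 kb of the start of Uqcrc1. Values such as these count toward the window but may belong to the neighbours. Of the 273 sites in collagen windows, 24 were within 1 kb of another gene's start and 33 lay inside another gene.

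FACIT collagens attach to the surface of fibrils, and 3 of 9 genes had a site at the start (33.3%, 12.1 to 64.6), against 26.6% of all protein-coding genes. All 3 sites were weak. At Col12a1 the site was 68 bp from the start, with 24.7 (replicates 17.0 and 7.4), at Col14a1 it was 467 bp into the gene, with 27.9 (17.5 and 11.4), and at Col19a1 908 bp into the gene, with 23.2 (15.1 and 7.7). Stronger sites lay near 2 of them. Col12a1 had one of 160.8 (replicates 88.0 and 74.6) at 1735 bp, and Col14a1 one of 274.8 (replicates 155.8 and 115.0) at -1284 bp.

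The other 6 FACIT genes had a site in the body and none at the start. Col9a2, a chain of cartilage type IX collagen, had one of 158.6 (replicates 93.7 and 67.4) 1748 bp into the gene. Col16a1 held the second strongest site of all collagen windows, at 464.7 (replicates 268.4 and 197.2), and Col22a1, a collagen of tissue junctions, the fourth strongest, at 427.0 (218.9 and 207.8). Both lay in introns.

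Of the 4 transmembrane collagens, only Col23a1 had sites at its start (25%, 4.56 to 69.9, against 26.6% of all protein-coding genes). The first, at -299 bp, had a signal of 280.3 (replicates 144.2 and 134.2) and no motif, although it was among the sites from which the motif was learned. The second, 374 bp into the gene in a coding exon, had 25.7, with 20.4 in replicate 1 and no matching peak in replicate 2. Col23a1 also had the most sites of all collagens, 16 in a window of 334 kb.

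Col13a1 and Col25a1, both membrane collagens, had strong sites just beyond 1 kb upstream. That of Col13a1 was 1515 bp from the start (324.3, replicates 163.2 and 159.4) and that of Col25a1 was 1468 bp from it (161.9, replicates 90.5 and 74.1). Col17a1, the hemidesmosomal collagen of epithelia, had 2 sites in its window, the nearest 17482 bp into the gene (132.7, replicates 82.3 and 50.3).

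The multiplexins, basement membrane collagens whose ends can be released as endostatin-like fragments, had no site within 1 kb or 5 kb of the start of either gene, with the nearest 26869 bp away at Col15a1 and 9136 bp away at Col18a1. Col18a1, the source of endostatin, held the strongest site of all collagen windows: 571.1, with 307.9 in replicate 1 and 262.7 in replicate 2, 35800 bp into the gene. It had rank 3 among all 54943 sites. The window of Col18a1 had 15 sites, with a second strong one at 382.4 (replicates 205.7 and 176.2). Col15a1 had 5 sites, all in introns and all with the motif, between 22.2 and 278.7.

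Col26a1, placed in no class here, had 13 sites, all in introns. The nearest to its start was 1639 bp away (286.1, replicates 155.4 and 130.3), and the strongest reached 422.5 (234.8 and 190.4). Col28a1, a chain of peripheral nerve, had 5 sites, the nearest at 3579 bp (65.7, replicates 37.0 and 27.6).

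In the 273 window sites as a whole, signal was slightly above that of all sites, with a median of 67.4 (quartiles 29.7 and 173) against 62.3 (30.5 and 152). The strongest 10000 sites of the list included 58 of the 273 (21.2%, 16.8 to 26.5), against 18.2% of all sites. At collagen starts the median was 93.0 over 9 sites, with a range from 23.2 to 334.9, against 49.8 over 6059 sites at protein-coding starts. These 9 sites give little precision, and 4 of them had signals below 30.

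Most window sites lay outside coding sequence. Of the 273, 177 were in introns, 7 in coding exons, 5 in exons of non-coding transcripts only, 1 each in a 5′ and a 3′ untranslated region, 43 in the upstream and 39 in the downstream flank. Coding exons held 3.66% of the sites in collagen bodies (1.79 to 7.37) and 3.77% of the bases. In other protein-coding genes they held 6.65% of the sites and 3.40% of the bases.

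The motif was found within 50 bp of the summit at 167 of 273 window sites (61.2%, 55.3 to 66.8), against 60.1% of all sites. The 20 bases matched the consensus at 9 to 20 positions, with a median of 13. The site upstream of Col5a3 matched at all 20 and had a signal of 380.9 (replicates 212.5 and 166.3), but it was among the 3000 sites from which the matrix was learned. Leaving out the 20 window sites of that set, 150 of 253 (59.3%) had the motif. At collagen starts, 5 of 9 sites had it (55.6%, 26.7 to 81.1), against 29.2% of sites at protein-coding starts. The motif direction below was examined after its values had been seen.

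All 5 motifs at collagen starts pointed against the direction of transcription: those of Col1a1, Col5a1, Col27a1, Col6a2 and Col19a1. Among all protein-coding starts, 40.9% of motifs did so. The lower Wilson bound for the 5 sites was 56.6%. It does not allow for the choice of this pattern after its values were seen, so the difference was not tested. Over the bodies of collagen genes 60 of 115 motifs pointed against the gene (52.2%, 43.1 to 61.1), against 50.8% in other genes. Among the nearest sites within 5 kb, 18 of 27 lay downstream of the start (66.7%), against 46.1% in other genes. Of the 13 of these 27 that had the motif, 9 pointed against the gene, against 45.3% in other genes. The 9 include the 5 start motifs above, and beyond 1 kb 4 of 8 pointed against the gene.

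The motif-bearing sites on either side of each start were then compared by direction. They pointed toward each other around 15 of 44 collagen starts (34.1%, 21.9 to 48.9), against 28.6% of other protein-coding starts. They pointed away from each other around 6 (13.6%, 6.40 to 26.7), against 25.1%, and the same way around 23 (52.3%), against 46.2%. The 2 such sites were a median of 71.9 kb apart, against 80.1 kb. Both sites lay outside the whole gene for 8 of 44 collagens (18.2%, 9.51 to 32.0), against 62.3% of other genes, which are shorter. For Col4a3 and Col4a4 the directions were convergent over 69.9 kb, and for Col4a1 with Col4a2 (72.6 kb) and Col4a5 with Col4a6 (170 kb) both pointed the same way. The genes of each type IV pair lay between the same sites, as did Col6a1 and Col6a2. The 44 starts were therefore not independent, and the Wilson intervals do not allow for this.

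Both replicates gave a matching peak for 264 of the 273 window sites. Over these, the signals of the replicates correlated with a Spearman rho of 0.957 and a Pearson r of 0.945 on the log scale, against 0.942 and 0.935 over all 53741 matched sites. These are across sites of the same 2 libraries, which share a control and were both used to choose the sites, and sites are not independent replicates. The median ratio of replicate 1 to replicate 2 was 1.23 in both sets. The percentile of a site, which is its rank by signal among the matched sites of a replicate, differed by a median of 4.26 points in collagen windows, against 4.69 over all sites.

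The sites that ranked higher in replicate 1 by the most were in the windows of Col24a1 (20.9 in replicate 1 and 3.5 in replicate 2, 31.5 points), Col6a6 (44.3 and 15.7, 27.2 points) and Col18a1 (17.3 and 4.5, 23.7 points). Toward replicate 2 they were in the windows of Col6a4 (8.7 and 21.6, -36.4 points), Col4a2 (17.3 and 30.1, -26.6 points) and Col13a1 (12.4 and 20.3, -25.8 points). Of these 6 sites, 5 had an optimal signal under 50, and none was a start site.

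**Figure D4:**
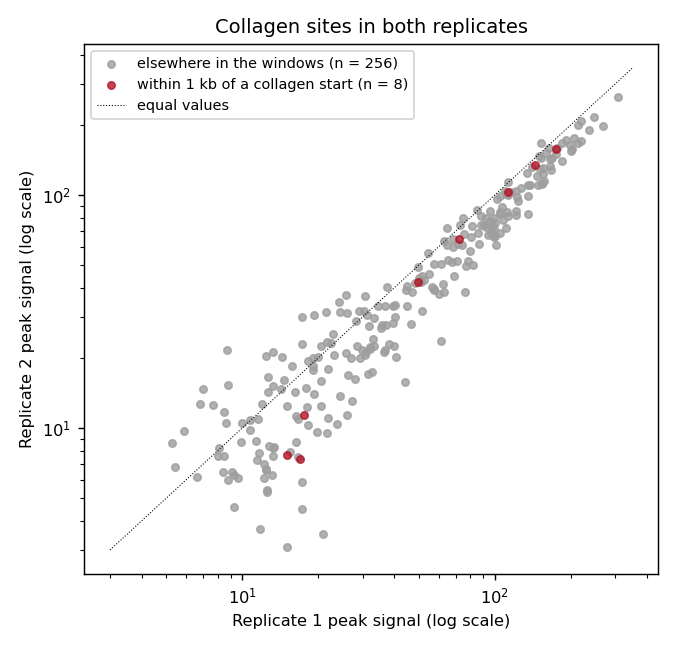
Signal in replicate 1 (horizontal, log axis) and replicate 2 (vertical, log axis) for the 264 collagen window sites matched in both; red points are the 8 matched sites within 1 kb of a collagen start, grey points the others, and the dotted line marks equal values. Most points lie below that line, with a median ratio of 1.23, and the scatter is widest at low signal.

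The 43 genes that modify, secrete, process, bind or degrade collagens were read in the same way. A site lay within 1 kb of the start of 19 of them (44.2%, 30.4 to 58.9), against 18.2% of the collagens and 26.6% of all protein-coding genes. Among the strongest 10000 sites the shares were level, with 4.65% of this list (2 genes) against 4.28% of all protein-coding genes. In the window, 42 of 43 had a site (97.7%, 87.9 to 99.6), against 97.7% of the collagens and 79.7% of all protein-coding genes. Gene length was not compared for this list. The 3 strongest start sites were at P4ha1 (230.0), a prolyl 4-hydroxylase that stabilises the triple helix, Bmp1 (199.0), the procollagen C-proteinase, and P3h3 (169.6), a prolyl 3-hydroxylase family member. All of these were weaker than the strongest start sites of Col1a1 (334.9) and Col23a1 (280.3).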

How the data were processed

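CTCF ChIP-seq peaks had been called on mm10 in 2 libraries of embryonic lung, per the labels. The signal values were deposited as the authors' peak caller gave them, unscaled. Per the deposited notes, both replicate lists and the pooled list were made with 1 shared control file, and the optimal and conservative lists were derived from them. The names of the aligner and caller and the IDR threshold are not given in sources used here. Replicate lists hold 300000 peaks each and the optimal list far fewer, so a matching replicate peak need not be a strong one.

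Summits of optimal peaks (54953 deposited, 54943 used) were placed by the deposited offset and assigned to GENCODE M21 genes, with 1 start each, by a site within 1 kb of the start, in the body, or within 20 kb. A replicate peak matched a site where it held the summit, and the one with the nearest summit was taken. The motif matrix was 20 bases wide, learned from the strongest 3000 sites in odd-numbered autosomes, and 1% of windows moved by 1 kb passed its threshold. The scan was tested on simulated data. On chromosomes not used for learning, 15250 of 25415 sites had it. Genes were named by rule: every start site, all fibrillar and type IV genes, the 10 strongest sites, the 3 fullest and the 3 densest windows, windows without a site, the 3 strongest start sites of the biosynthesis list, and the 3 most discordant sites each way. Other members are named for completeness, chosen after their values were seen. The collagens, classes and lists were chosen with earlier results of these data known. No test was made, as there is 1 group. The results were recomputed with the conservative list, only the strongest 10000 sites, pooled peaks, 1 replicate left out in turn, other start distances, flanks and motif settings. After seeing the data, merged overlapping peaks and starts of protein-coding transcripts were added. The software was pysam 0.24.0, matplotlib 3.10.9, scipy 1.17.1, pandas 2.3.3, numpy 2.4.6 and Python 3.11.15.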

Additional observations from a re-analysis of the deposited data

How the results depend on the processing

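Of 72 alternative values of the 8 results, 55 stayed near the reported value (within its Wilson interval for shares, or 1 SD between the replicates for the density) and 17 did not. With only the strongest 10000 sites, the share of collagens with a site at the start was 6.82%, the share with a site in the window 72.7%, the median density 0.884 sites per 100 kb, the share of sites with the motif 84.5%, the fibrillar share 9.09%, the share of the other collagens 6.06% and that of the biosynthesis list 4.65%. The share of all protein-coding genes with a site at the start was then 4.28%. Within 5 kb of the start the shares were 61.4% for all collagens, 81.8% for the fibrillar ones, 54.5% for the others and 72.1% for the biosynthesis list, and within 500 bp the fibrillar share was 9.09%, below the 12.1% of the others. A flank of 50 kb put a site in 100% of windows, and a motif threshold passed by 0.1% of shifted windows left 19.8% of sites with the motif. The window share, density and motif share were not recomputed over all genes or all sites in the alternative settings. Their alternative values therefore cannot be called high or low. Leaving out each replicate in turn gave 22.7% to 25% at starts, 97.7% to 100% in windows, 3.42 to 4.19 sites per 100 kb, 60.2% to 61.0% with the motif, 36.4% for the fibrillar genes in both cases, 18.2% to 21.2% for the others, 48.8% for the biosynthesis list in both cases, and 0 to 1 type IV pairs with a start site. The single pair appeared without replicate 2. Of all protein-coding genes, 26.9% had a site at the start without replicate 1 and 27.3% without replicate 2. In these settings the strongest peaks of the other replicate, as many as in the optimal list, took its place. No paired analysis was possible because there is 1 group. Peak lists hold no read counts, pooled tissue hides the cell type, and 1 biosample record leaves the spread between animals unmeasured.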
